A study of Mus musculus with 6 samples.

Results

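CpG methylation was compared between 2 mouse embryonic stem cell lines that differed, per their labels, in SETD2. Both lines lacked DNMT1, DNMT3A and DNMT3B (labelled DNMT1,3a,3b-triple-null, or TKO) and expressed DNMT3B1. The second line was in addition labelled SETD2-KO and is called the knockout here, and the first DNMT3B1 cells. Another triple-null line, which expressed DNMT3A2, is used only as a further readout on the same sites. Autosomal CpG sites were compared where both lines had at least 10 reads, with at most 40 reads in DNMT3B1 cells and 80 in the knockout. This left 4878124 of the 20782144 CpG sites of the series (23.5%). Each line was 1 library, so no test between the lines was possible. Exact 95% binomial intervals cover counting error only, and take the counts at neighbouring CpGs as separate reads. Standard deviations (SD) over chromosomes describe spread within a library, not between cultures. The labels give 2 sequencing runs a line, on 2 instruments for DNMT3B1 and as single and paired-end reads for the knockout. A difference between lines and a difference between their sequencing cannot be told apart. Bisulfite sequencing measured neither SETD2, histone marks, RNA nor the amount of DNMT3B1, so the labelled genotype could not be checked, and the labels do not say whether a line was 1 clone.

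DNMT3A and DNMT3B place methyl groups on CpG cytosines that carried none, and DNMT1 copies the marks to the new strand at each replication. Without DNMT1 a mark placed on 1 strand is not copied, so the marks in these cells depend on the reintroduced enzyme acting again. SETD2 trimethylates lysine 36 of histone H3 (H3K36me3) along gene bodies while RNA polymerase II transcribes them. The PWWP domain of DNMT3B binds that mark, and transcribed gene bodies are known sites of DNMT3B methylation in stem cells. CpG islands, the CpG-dense stretches at many gene starts, are usually unmethylated.

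The knockout carried more methylation than the DNMT3B1 line on every autosome. Of the CpG reads compared, 2.74% were methylated in DNMT3B1 cells (76647142 reads) and 5.79% in the knockout (95106069 reads). The difference, called the rise here and given in percentage points, was 3.05 points, or 2.11 times. Over the 19 autosomes the rise was 3.06 ± 0.14 points (SD), from 2.79 points on chromosome 7 to 3.26 on chromosome 6. The level of the DNMT3B1 line ranged from 2.56% to 2.94% over autosomes and that of the knockout from 5.40% to 6.12%, so the ranges did not overlap. The DNMT3A2 line had 7.22% on the same sites. Mean coverage was 15.7 reads in DNMT3B1 cells and 19.5 in the knockout, and the ratio of the coverages varied from 1.20 on chromosome 3 to 1.30 on chromosome 11. The knockout values list no site under 10 reads. The 2414182 sites with 10 to 40 DNMT3B1 reads that this leaves out had a DNMT3B1 level of 2.91%, against 2.74% at the sites listed, and lower CpG density (mean 15.4 against 21.5 CpGs in the surrounding 1 kb).

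Most sites were unmethylated in both lines. Those at high levels were mostly different sites, though sites high in 1 line were more often high in the other than all sites were. Sites were put into 5 classes by the share of their reads that was methylated. Sites without a methylated read made up 81.9% in DNMT3B1 cells and 63.5% in the knockout. Both lines had a methylated read at 476864 sites, 54.0% of such sites in DNMT3B1 cells and 26.8% of those in the knockout. A level of at least 50% was seen at 18474 sites (0.379%) and 47968 sites (0.983%), in the same order, and 690 sites were in both sets (3.73% and 1.44% of them). Thus 3.73% of the DNMT3B1 set reached 50% in the knockout, against 0.983% of all sites. In the other direction 1.44% stood against 0.379%. The class was higher in the knockout at 1428654 sites (29.3%), lower at 489554 (10.0%) and equal at 60.7%. Of the 839 sites at 80% and over in DNMT3B1 cells, 349 (41.6%) had no methylated read in the knockout, against 63.5% of all sites. At 80% and over there too were 13 (1.55%), against 0.042% of all sites. With 10 to 40 reads a site, single sites change class by counting error alone, and depth, which was higher in the knockout, also moves the share of sites with no methylated read.

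A site was called gained at a level of at most 10% in DNMT3B1 cells and at least 50% in the knockout, lost in the reverse case, and kept at 50% or more in both. Gained sites numbered 36943 (0.757% of all sites), lost sites 10562 (0.217%) and kept sites 690 (0.0141%), or 3.50 gained for each lost. The DNMT3A2 line was above its average at sites of all 3 kinds. Its level was 11.1% at gained, 11.9% at lost and 18.1% at kept sites, against 7.22% over all sites. Over all sites with 5 to 9 CpGs in the surrounding 1 kb it was 8.05%, and with 10 to 19 it was 9.12%. The part of CpG density in the gap was not tested. Few of the called sites lay in CpG-dense DNA: the median site of each kind had 11 or 12 CpGs in the surrounding 1 kb, against 14 over all sites. The gained share was 1.10% of sites with 1 to 4 CpGs per kb, 0.879% of those with 10 to 19 and 0.00437% of those with 60 and more. The share lost was 0.287%, 0.251% and 0.00510% at the same densities, which in the densest class was 21 lost and 18 gained sites. By chromosome the gained share was between 0.469% and 0.989% and the lost share between 0.102% and 0.318%. Called sites had fewer reads than all sites. Gained sites had a mean of 14.8 DNMT3B1 and 14.2 knockout reads and lost sites 13.9 and 17.4, against 15.7 and 19.5 over all sites. Mean knockout coverage ranged from 17.4 reads on chromosome 3 to 23.7 on chromosome 11. The part of depth in the chromosome shares was not tested.

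Which sites carried methylation in one line was related to the level in the other. Below 40 CpGs per kb, the knockout level was 5.72% ± 0.17 (SD over 19 autosomes) at sites without a methylated read in DNMT3B1 cells. It was 9.34% ± 0.18 at sites above 0 and under 20%, 11.1% ± 0.20 at 20 to under 50%, 12.9% ± 0.68 at 50 to under 80% and 13.8% ± 2.17 at 80% and over. Read the other way, the DNMT3B1 level went from 2.28% ± 0.09 at sites without a methylated knockout read to 8.74% ± 2.21 at those at 80% and over. The levels in each series are ordered with the class, but sites at 57.1% or 85.2% in DNMT3B1 cells were far below those levels in the knockout. The DNMT3A2 line had 7.71%, 9.99%, 11.1%, 12.5% and 17.9% in the 5 DNMT3B1 classes.

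**Figure D1:**
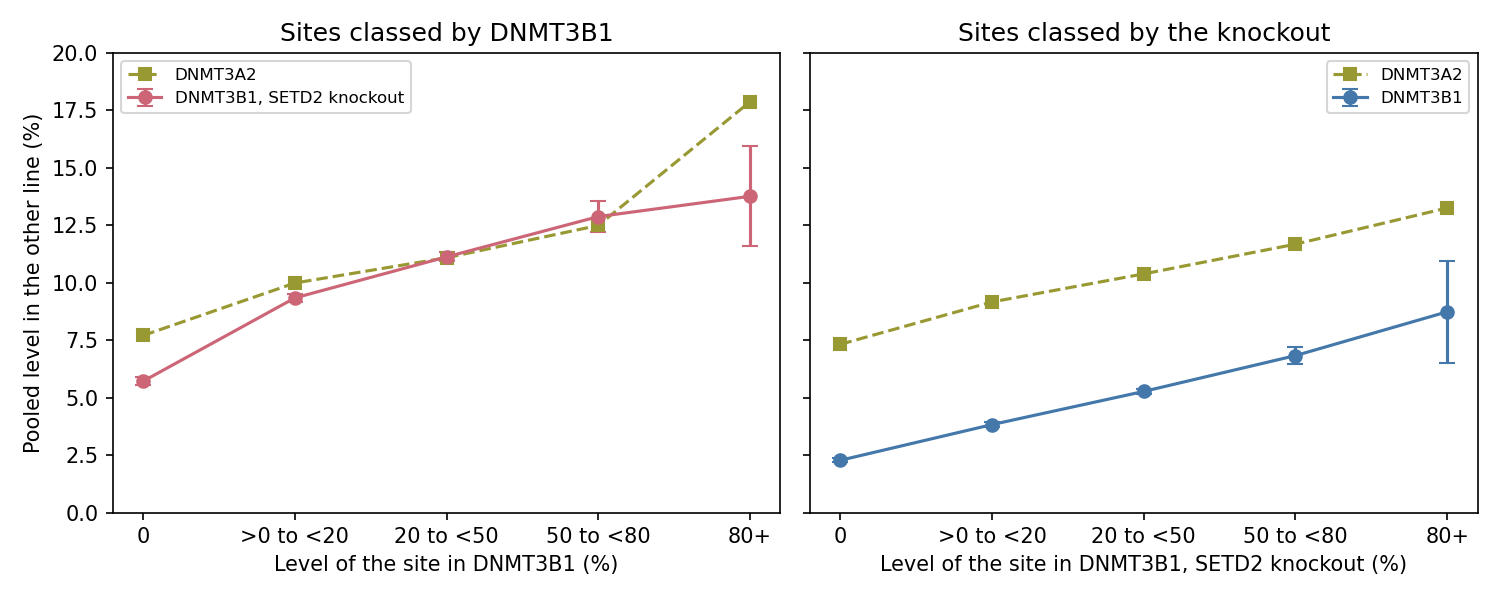
Pooled methylation level (%) of sites with under 40 CpGs per kb, grouped on the x axis by their level in the other line. Circles are the knockout (left) or DNMT3B1 (right) with SD over 19 autosomes, and squares are DNMT3A2. Levels increase from class to class in all 4 series, from 5.72% to 13.8% for the knockout.

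The neighbours of highly methylated sites had higher levels, most of all at short distances. Pairs of consecutive compared sites were used, both with under 40 CpGs per kb. Where a site was at 50% or more in the knockout, the next compared CpG 2 to 10 bp away had a level of 19%. At 100 to 200 bp the next compared CpG had 7.90%. After sites without a methylated read these values were 4.47% and 6.37%. In the DNMT3B1 line the level next to a site at 50% or more was 13.3% at 2 to 10 bp and 4.55% at 100 to 200 bp, against 2.44% and 2.99% next to a site without a methylated read. At 1 to 5 kb the difference was smaller but present, with 7.17% against 6.72% in the knockout and 3.73% against 3.05% in the DNMT3B1 line. Neighbours within a read length share reads, and the part of shared molecules in the likeness was not tested.

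Called sites rarely lay together. Runs of at least 3 gained sites, each at most 500 bp from the next, numbered 84 and held 258 sites (0.698% of gained sites). Runs of lost sites numbered 22 with 74 sites (0.701%), and there was no run of kept sites. The gained stretch with most called sites was at chr19:28651775-28651827 (mm9), where 0 of 138 DNMT3B1 reads and 61 of 130 knockout reads (46.9%) were methylated. The next had 4 called sites each. They were chr6:64015614-64015631 (4.05% in DNMT3B1 and 65.0% in the knockout), chr8:17986109-17986142 (0% and 59.6%), chr17:31728705-31728996 (0% and 53.4%) and chr10:82521043-82521421 (4.76% and 47.7%). Their DNMT3A2 levels were between 4.76% and 17.5%.

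The lost stretch with most called sites, chr7:149767925-149768046, had 7 lost sites among 8 compared. There 115 of 194 reads were methylated in DNMT3B1 cells (59.3%), 0 of 120 in the knockout and 37.8% in the DNMT3A2 line. The others were chr2:26319327-26319388 (52.0% and 1.85%), chr2:28862220-28862793 (57.1% and 3.13%), chr4:140109261-140109664 (34.3% and 13.4%) and chr10:66785874-66785926 (75.0% and 0%). Their DNMT3A2 levels were between 2.38% and 18.6%. Each line had 40 to 262 reads in a named stretch, and CpGs so close share molecules.

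The rise depended on how many CpGs lie near a site (itself and all others up to 500 bp away). It was 3.75 ± 0.21 points (SD over 19 autosomes) at 1 to 4 CpGs, 3.82 ± 0.06 at 5 to 9 and 3.60 ± 0.08 at 10 to 19. With 20 to 39 CpGs it was 2.57 ± 0.15 points, with 40 to 59 it was 0.73 ± 0.07, and with 60 and more, the class of CpG islands, 0.31 ± 0.03. In proportion the order turned only above 39 CpGs. The knockout level was 2.32 times the DNMT3B1 level at 1 to 4 CpGs, falling to 2.04 times at 20 to 39. It was 2.62 times at 40 to 59 and 3.07 times at 60 and more, where both levels were low (0.150% and 0.460%). Conversion in each line was not measured here, and the part of unconverted cytosines in such low levels was not tested. The DNMT3A2 line was above the knockout at 5 to 39 CpGs (9.12% against 6.90% at 10 to 19) and below it at 1 to 4 CpGs (5.80% against 6.58%) and at 40 and more.

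**Figure D2:**
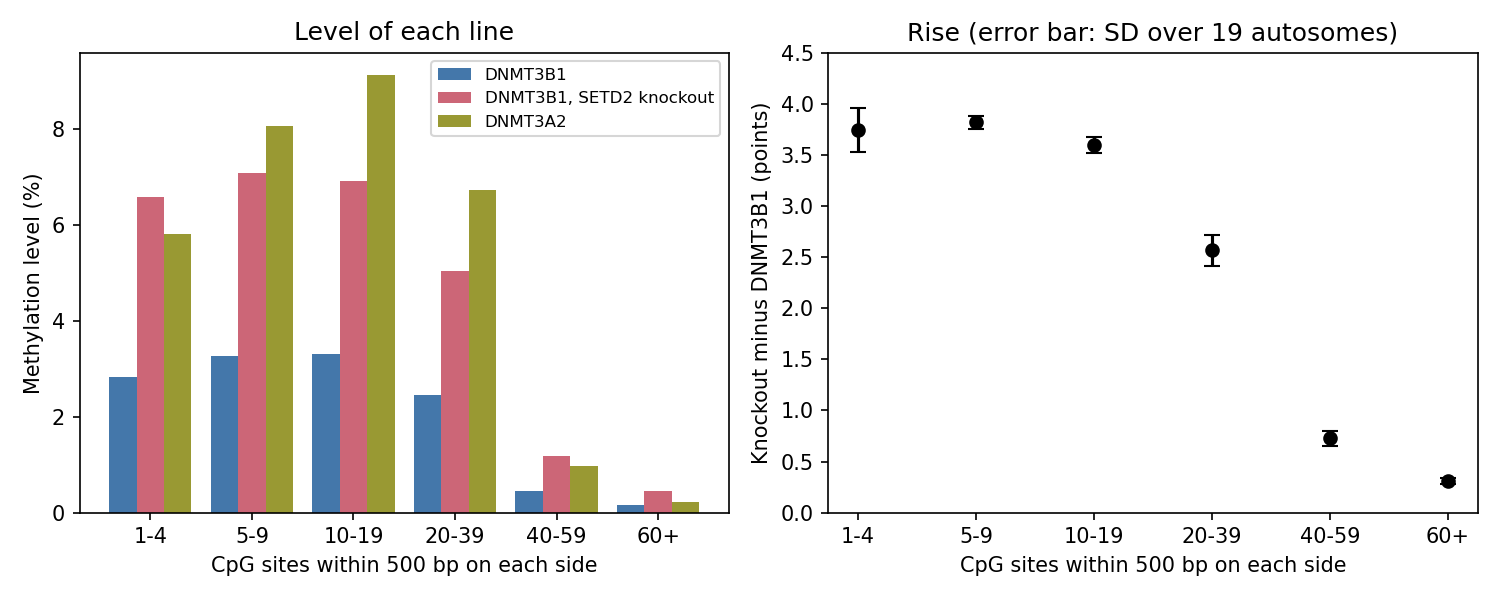
Left, methylation level (%) of each line by CpG sites within 500 bp on each side. Right, the difference of knockout and DNMT3B1 in percentage points, with SD over 19 autosomes. The difference is between 3.60 and 3.82 points up to 19 CpGs and 0.31 points at 60 and more.

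How the rise varied with the starting level of the region differed between CpG densities. The starting level was taken from DNMT3B1 reads at CpGs 500 to 5000 bp away, which almost never share a read with the site, and was available for 4466810 sites (91.6%). Over all densities the rise was 2.25 ± 0.12 points (SD over 19 autosomes) where the flanks were under 1%, 3.44 ± 0.16 at 3 to 4% and 3.36 ± 0.17 at 6% and over. At 10 to 19 CpGs per kb it varied less and was 3.28 ± 0.12 points where the flanks were under 1%. It was 3.75 ± 0.12 at 3 to 4% and 3.48 ± 0.23 at 6% and over. The DNMT3B1 level of the sites themselves went from 2.51% to 4.20% between the lowest and the highest of these classes and the knockout level from 5.79% to 7.68%. The ratio of the lines was 2.31 in the lowest and 1.83 in the highest class, while the difference was between 3.28 and 3.75 points in all 6. At 20 to 39 CpGs the rise was 1.95 ± 0.20 points under 1%, 2.93 ± 0.22 at 3 to 4% and 2.58 ± 0.32 at 6% and over. In both density classes the largest rise was thus in the middle of the range.

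Other definitions of the starting level gave other slopes. By the DNMT3A2 level of the site itself, at 10 to 19 CpGs, the rise was 3.27 ± 0.08 points under 1% and 3.98 ± 0.10 at 6% and over. By the DNMT3B1 level of the site itself it was 6.01 points under 1% and -6.60 at 6% and over. This last grouping uses the same reads as the rise, so counting error moves both in opposite directions, and it is given as a description only.

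All 1771 tiles of 1 Mb with at least 500 sites had a higher level in the knockout. The rise ranged from 0.97 to 5.28 points with a median of 3.22 and an SD of 0.60. The median standard error of a tile was 0.32 points, from the spread between 500 bp clusters of CpGs within the libraries. A tile was called where its rise was at least 1 point from the autosomal rise with a 95% interval excluding that value. By this rule 130 tiles (7.34%) had a larger rise and 53 (2.99%) a smaller one. Tiles with the larger rise had a median of 3.10% in DNMT3B1 cells, 7.37% in the knockout and 8.42% with DNMT3A2. Tiles with the smaller rise had 2.09%, 4.02% and 4.66%, so all 3 lines were low there. Their median CpG density was 29.8 against 14.4 in tiles with the larger rise, and the coverage of the knockout over that of DNMT3B1 was 1.26 against 1.16. The part of density and coverage in these calls was not tested. Restricted to sites with 10 to 19 CpGs the counts were 52 larger and 54 smaller.

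Across tiles the rise went with CpG density and with the number of gene starts. Pearson's r was -0.60 between rise and density over 1771 tiles, -0.45 between rise and coverage ratio, and -0.53 between rise and the number of gene starts placed in the tile over 1706 tiles. At 10 to 19 CpGs the last value was -0.31 over 1568 tiles. The tiles come from the same pair of libraries, and density, coverage and gene starts vary together. Rises computed from odd-numbered and from even-numbered clusters of a tile had r = 0.49, and rises of adjacent tiles r = 0.25.

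**Figure D3:**
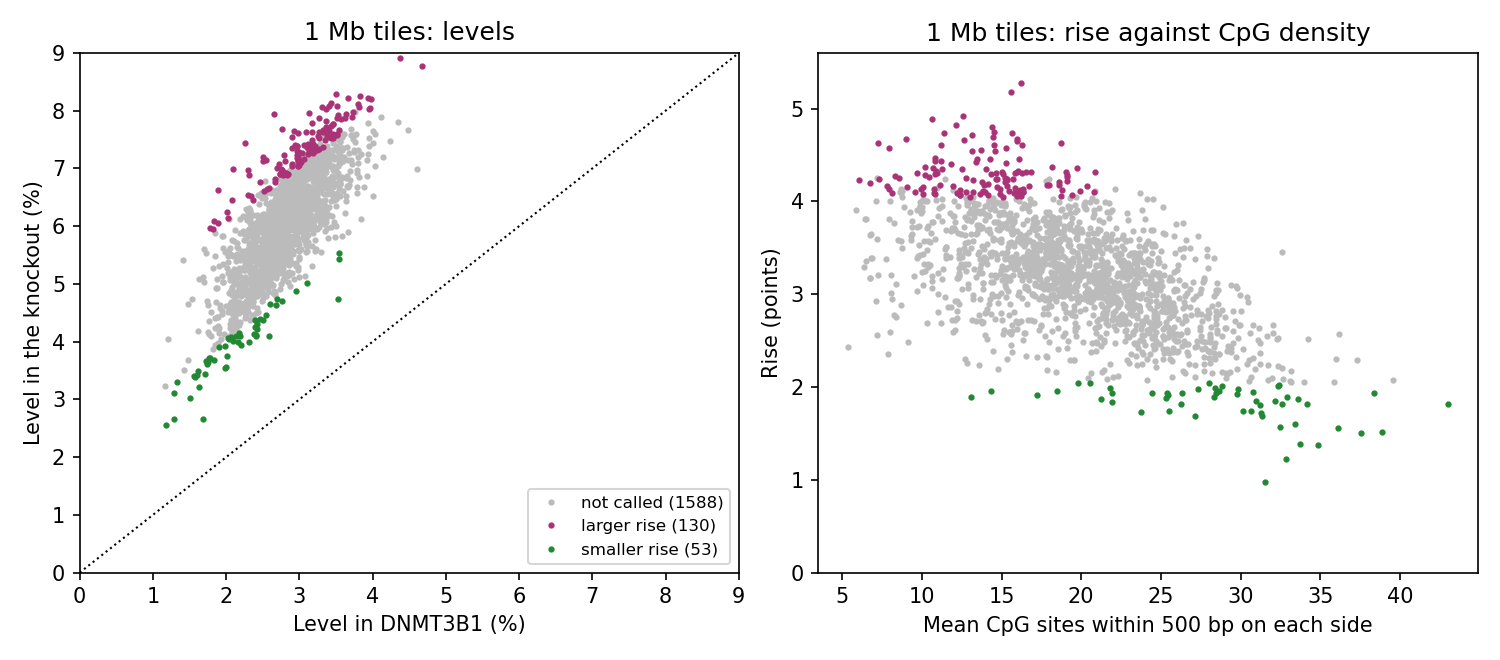
Left, level in the knockout against level in DNMT3B1 (%) for 1771 tiles of 1 Mb, with equal levels as a dotted line. Right, rise in points against mean CpG density. Every tile is above the dotted line, and the tiles called for a smaller rise (53) are mostly CpG-rich.

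The 5 tiles with the smallest rise were all CpG-rich, with 31.5 to 37.5 CpGs per kb. Chr7:5000001-6000000 went from 1.68% to 2.65% (rise 0.97 points, 95% interval 0.23 to 1.72) and chr7:34000001-35000000 from 3.52% to 4.74% (1.22, 0.32 to 2.12). Chr7:13000001-14000000 had a rise of 1.38 points, chr18:37000001-38000000 also 1.38 and chr4:155000001-156000000 1.51. At sites with 10 to 19 CpGs the rises of the chromosome 7 tiles at 5, 34 and 13 Mb were 2.34, 0.08 and 2.40 points. Those of the chromosome 18 and chromosome 4 tiles were 2.06 and 2.40. The median of 1629 tiles at this density was 3.66 points. Only the tile at 34 Mb had a smaller rise there than over all its sites. The tile at 34 Mb on chromosome 7 stands apart among them in that its DNMT3B1 level was above the autosomal level, while its knockout level was below that of the knockout. Without a coverage maximum the tile at 5 Mb had a rise of -1.32 points, so sites of very high coverage decide its direction.

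The 5 tiles with the largest rise had 10.7 to 16.2 CpGs per kb. Chr17:73000001-74000000 went from 2.66% to 7.94% (rise 5.28 points, 4.55 to 6.01) and chr16:59000001-60000000 from 2.25% to 7.44% (5.18, 3.87 to 6.50). The rises of chr13:111000001-112000000, chr4:52000001-53000000 and chr1:161000001-162000000 were 4.92, 4.89 and 4.82 points. The intervals of the largest and of the smallest rises did not overlap, but the tiles were ordered by these values.

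To relate the sites to genes, RefSeq promoter sequences (300 bases, 250 before and 50 after a gene's start) were placed on the CpG positions of the series. A promoter with at least 8 CpGs was placed where the spacing of its CpGs matched at exactly 1 position. Of 15982 such promoters 13754 were placed, all on the chromosome RefSeq gives them, for 11883 genes. Sequences and gene lengths are those of RefSeq on GRCm38.p6 and all positions printed are mm9 positions of the series, with no conversion between builds.

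Among protein-coding genes with symbols other than clone names, the promoters of Tex12 and Plagl1 had the largest falls and those of Trmt44 and Trim60 the largest rises. They show how differently single gene starts behaved. Capitals mark CpG sites, each run ends 1 base before the gene's start and reads 5′ to 3′ on the gene's strand. Tex12 (chr9:50369374-50369623, minus strand) encodes a protein of the synaptonemal complex, which pairs chromosomes in meiosis. Plagl1 (chr10:12810388-12810637, plus strand) is an imprinted gene for a zinc finger factor, and the noncoding Hymai starts in the same window, with the same reads. Trmt44 (chr5:35917720-35917969, minus strand) encodes a transfer RNA methyltransferase. Trim60 (chr8:67542588-67542837, minus strand) encodes a tripartite motif protein.
Tex12: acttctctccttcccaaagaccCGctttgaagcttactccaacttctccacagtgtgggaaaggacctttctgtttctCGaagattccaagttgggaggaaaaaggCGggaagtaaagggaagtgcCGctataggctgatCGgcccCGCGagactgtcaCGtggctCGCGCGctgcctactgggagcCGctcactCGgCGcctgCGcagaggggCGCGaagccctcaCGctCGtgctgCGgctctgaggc
Plagl1: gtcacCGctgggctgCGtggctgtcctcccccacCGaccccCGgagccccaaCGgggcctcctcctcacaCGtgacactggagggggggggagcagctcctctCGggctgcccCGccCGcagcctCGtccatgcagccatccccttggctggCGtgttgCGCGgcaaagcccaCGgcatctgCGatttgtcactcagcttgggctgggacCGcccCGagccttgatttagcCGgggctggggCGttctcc
Trmt44: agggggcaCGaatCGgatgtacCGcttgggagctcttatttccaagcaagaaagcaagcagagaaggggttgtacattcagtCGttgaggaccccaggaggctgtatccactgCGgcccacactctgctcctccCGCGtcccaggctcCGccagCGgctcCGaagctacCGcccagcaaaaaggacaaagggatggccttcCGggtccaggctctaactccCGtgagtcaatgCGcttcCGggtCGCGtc
Trim60: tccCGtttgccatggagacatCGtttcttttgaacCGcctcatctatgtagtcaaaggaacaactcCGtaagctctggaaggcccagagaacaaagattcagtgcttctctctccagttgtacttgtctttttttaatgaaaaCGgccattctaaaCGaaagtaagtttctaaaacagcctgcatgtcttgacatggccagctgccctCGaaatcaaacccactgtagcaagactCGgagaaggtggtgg

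In the Tex12 promoter 54 of 166 DNMT3B1 reads were methylated over 11 CpGs (32.5%, exact 95% interval 25.5% to 40.2%), 0 of 196 in the knockout (upper limit 1.86%) and 0 of 34 in the DNMT3A2 line. Methylated reads were seen at 10 of the 11 CpGs with DNMT3B1, at up to 50%, with 5 methylated reads at most of them, and neighbouring CpGs share reads. A read is counted here once for each CpG it covers. The exact intervals of these promoters treat such counts as separate reads and are therefore too narrow. In the Plagl1 promoter the levels were 20.3% (74 of 365 reads), 0.413% (1 of 242) and 33.0% (116 of 351). Its methylation in DNMT3B1 cells lay on 7 CpGs from 137 to 68 bases before the start, at 29.0% to 50%. The 11 CpGs from 40 bases before to 48 after the start had none in either line. In the Trmt44 promoter 0 of 135 reads were methylated in DNMT3B1 cells, 42 of 181 in the knockout (23.2%, 17.3% to 30.04%) and 0 of 106 with DNMT3A2. All but 1 of the 42 lay on 2 CpGs, 10 and 13 bases after the start and so beyond the bases printed, at 82.9% and 66.7%, while the CpG 8 bases after the start had 0 of 19. In the Trim60 promoter 0 of 136 reads were methylated in DNMT3B1 cells, 30 of 172 in the knockout (17.4%, 12.1% to 24.0%) and 7.14% with DNMT3A2. Methylated knockout reads were seen at 6 of its 7 CpGs, at up to 34.5%, spread from 246 to 14 bases before the start. These values rest on few sites. At 12 to 16 reads in both lines, Tex12 kept 3 CpGs with a change of -33.3 points, while the 5 CpGs left in Plagl1 and the 3 in Trmt44 had no methylated read in either line. Trim60 had no CpG there, and at 20 reads in both lines it had 2, with a rise of 7.41 points.

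Such changes were rare among promoters. With at least 100 reads in each line, 7341 promoters could be compared, with a pooled level of 0.179% in DNMT3B1 cells and 0.507% in the knockout, and 0.317% with DNMT3A2. Promoters without a methylated read made up 80.2% in DNMT3B1 cells, 45.3% in the knockout and 38.2% in both. A level at least 5 points higher in the knockout was seen at 99 promoters (1.35%) and one at least 5 points lower at 14 (0.191%). The protein-coding genes that follow those shown were Dnajb8 (0% and 15.3%), Rrbp1 (0% and 12.7%) and Hcrtr1 (2.70% and 15.3%) among those higher in the knockout. At 12 to 16 reads Hcrtr1 had only 2 CpGs and a change of -3.23 points. Atp6v0c (9.0% and 0%) and Psmd6 (5.94% and 0%), a proton pump subunit and a proteasome subunit, were among those lower.

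Levels dipped at gene starts in all lines. Starts were used of genes at least 30 kb long with no other RefSeq gene overlapping the 30 kb upstream. Around these 959 starts the level within 1 kb was 0.219% ± 0.079 (SD over 18 chromosomes) in DNMT3B1 cells and 0.755% ± 0.144 in the knockout. At 20 to 30 kb upstream the levels were 2.78% ± 0.28 and 6.65% ± 0.35, and at 20 to 30 kb inside the gene 3.32% ± 0.28 and 6.67% ± 0.42. The DNMT3B1 level was thus 0.54 points higher inside the genes than upstream, and the knockout level 0.02 points higher. With DNMT3A2 the levels were 8.27% ± 0.69 upstream and 8.90% ± 0.68 inside, 0.62 points apart. The rise was 3.87 ± 0.36 points upstream and 3.35 ± 0.52 inside. At 10 to 20 kb the DNMT3B1 levels were 2.78% upstream and 3.23% inside, and the knockout levels 6.54% and 6.77%. At 5 to 10 kb they were 2.62% and 2.96% with DNMT3B1, and 6.50% and 6.04% in the knockout. The direction in the knockout thus differed between distances. Each SD is that of 1 distance class over chromosomes. Upstream and inside values come from the same genes and chromosomes, and the spread of their difference was not computed. Whether any of these differences exceeds that spread was therefore not tested.

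**Figure D4:**
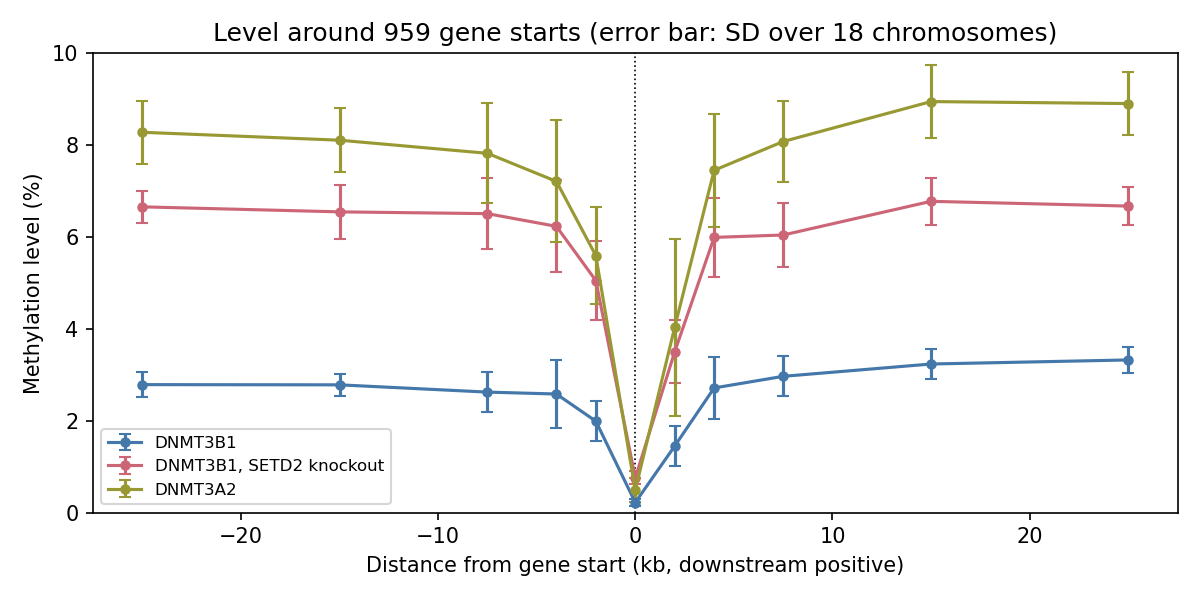
Methylation level (%) of each line by distance from the gene start (kb, downstream positive), pooled over 959 genes, with SD over 18 chromosomes. All lines dip at the start, and DNMT3B1 goes from 2.78% at 20 to 30 kb upstream to 3.32% at 20 to 30 kb downstream while the knockout has 6.65% and 6.67%.

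Gene bodies, taken from 3 kb after a placed start to the end of the gene, gave 3710 genes with at least 100 sites. The median body had 3.48% in DNMT3B1 cells, 6.71% in the knockout and 8.73% with DNMT3A2, and the median rise was 3.17 points. The rise was at most 2 points in 760 bodies (20.5%), at least 5 points in 248 (6.68%), and below 0 in 76. Genes were ranked by the DNMT3B1 level in odd-numbered clusters and read in even-numbered ones, so that ranking and reading shared no cluster. In the top decile the median DNMT3B1 level was 4.47%, the knockout level 7.21% and the rise 2.56 points. The rise was 2.86 points in the lowest decile, which was the most CpG-dense (17.8 against 14.4 CpGs in the top decile), and between 3.11 and 3.46 in the other deciles.

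Bodies of broadly expressed genes had a higher median level than those of neuronal genes in DNMT3B1 cells, and the medians were close in the knockout. A list of 110 genes that most dividing cells express and one of 80 large neuronal genes, both from textbook knowledge, were written after extremes of these data had been seen and support nothing by themselves. Of the first list 54 genes were measured, with a median of 5.10% in DNMT3B1 cells and 6.48% in the knockout. Of the second 34 were measured, with 2.94% and 6.61%. The ratio of the first median to the second was 1.74 in DNMT3B1 cells, 0.980 in the knockout and 1.49 with DNMT3A2. The median rise was 1.41 points in broadly expressed genes (from -3.38 to 5.29) and 3.58 in neuronal genes (0.59 to 5.57). Set against the 20.5% of all bodies with a rise of at most 2 points, 37 of the 54 broadly expressed and 1 of the 34 neuronal genes had one.

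The lists also differed in other ways. The median CpG density of their sites was 13.8 and 9.13 per kb, and coverage in the knockout was 1.27 and 1.15 times that in DNMT3B1 cells. At sites with 10 to 19 CpGs the ratio of the medians was 1.65 in DNMT3B1 cells, 0.948 in the knockout and 1.09 with DNMT3A2, so that of the DNMT3A2 line moved most with density. There the rises were 1.52 and 3.98 points. At sites with 12 to 16 reads in both lines only 1 broadly expressed gene was left with 100 sites and the order turned, with 5.29 points against 4.29 in 17 neuronal genes. With bodies of at least 20 such sites the rises were 2.43 points in 31 broadly expressed and 4.07 in 36 neuronal genes.

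**Figure D5:**
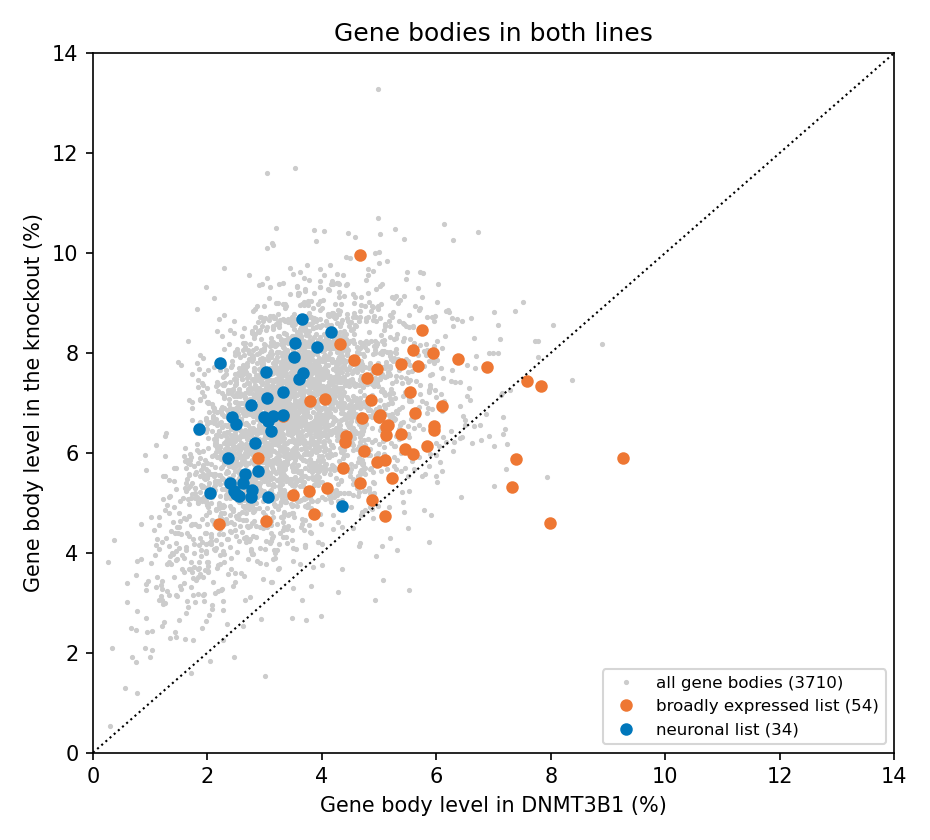
Gene body level (%) in the knockout against DNMT3B1 for 3710 genes (grey), 54 broadly expressed genes (orange) and 34 neuronal genes (blue), with equal levels as a dotted line. The lists are apart along the DNMT3B1 axis (medians 5.10% and 2.94%) and overlap along the knockout axis (6.48% and 6.61%).

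Among the 54 broadly expressed genes 7 were lower in the knockout, and none of the 34 neuronal genes was. Over all bodies 76 of 3710 were lower, so none among 34 is close to the share of all bodies. Of the 7 lower genes only Uba2 and Gart had a 95% interval excluding 0. The ends of the first list were Uba2, a subunit of the SUMO-activating enzyme (7.99% and 4.60%, a change of -3.38 points, 95% interval over clusters -6.44 to -0.33), and Sec31a, a coat protein of transport vesicles (4.66% and 9.95%, 5.29 points, 3.00 to 7.57). Of the 4 broadly expressed genes with most sites, Trrap, a scaffold of histone acetyltransferase complexes, had 6.88% in DNMT3B1 cells and 7.72% in the knockout, a rise of 0.84 points (-0.54 to 2.22). Myh9, a non-muscle myosin heavy chain, had a rise of 1.39 points (0.25 to 2.54) and Hk2, a hexokinase of glycolysis, one of 1.20 (-0.34 to 2.73). Eif4g3, a translation initiation factor, was unlike them with 4.56% and 7.86%, a rise of 3.30 points (2.30 to 4.29). Of the 4 neuronal genes with most sites, Asic2, an acid-sensing ion channel, had 3.32% and 7.22%, a rise of 3.90 points (3.46 to 4.34). Cacna1c, a voltage-gated calcium channel, had a rise of 4.25 points (3.70 to 4.80), Kcnip1, a protein that binds potassium channels, one of 4.20 (3.45 to 4.96) and Galntl6, of a family of glycosyltransferases, one of 2.99 (2.28 to 3.71).

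At the ends of the order, among the 1982 bodies with at least 200 sites, stood genes of both kinds of behaviour. The smallest rises were in Kmt2d, a histone H3 lysine 4 methyltransferase, and Cad, which starts pyrimidine synthesis. Kmt2d had 7.22% in DNMT3B1 cells and 5.67% in the knockout (-1.54 points, -3.28 to 0.19), and Cad had 7.39% and 5.87% (-1.52 points, -3.62 to 0.57). Rab3gap2 (-0.86 points), Gpi1 (-0.72) and Fasn (-0.71), the last the fatty acid synthase, followed. The intervals of all 5 included 0, and with a minimum of 5 DNMT3B1 reads a site Rab3gap2 had a rise of 0.98 points. The largest rises were in Tgfb2, a growth factor of the TGF-beta family, with 3.52% and 11.7% (8.17 points, 6.16 to 10.2), and in Tmod1, an actin filament capping protein, with 3.86% and 10.5% (6.61, 4.57 to 8.65). Kcnc1, a potassium channel, Pfkfb4, a regulator of glycolysis, and Ddah1, which degrades methylated arginines, had rises of 6.48, 6.39 and 6.35 points. In 4 of these 5 the DNMT3A2 level was also high, at 11.8% to 14%. The genes were ordered by these values, so their distance from the median is a description.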

How the data were processed

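Whole-genome bisulfite sequencing was read from the deposited tables. Per the file headers, the series table gives total reads (coverage) and counts of methylated reads per CpG for the DNMT3B1 and DNMT3A2 lines, and the deposited knockout values give coverage, methylated read counts and their fraction. The fraction equalled methylated over total reads and was not used further. The 2 deposited knockout files were identical and were counted as 1 sample. The build is mm9, per the submitters' processing notes, while aligner, methylation caller and duplicate treatment are not given in the sources used. Levels are methylated over all reads, pooled over sites. Intervals are exact (Clopper-Pearson) or, for tiles and gene bodies, from a ratio estimator over 500 bp clusters. Mean coverage of 15.7 and 19.5 reads makes single sites imprecise. Total CpG reads compared were 76647142 and 95106069.

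Tiles and stretches named are those with the 5 largest and smallest rises and the most called sites. Promoters named are protein-coding genes with symbols other than clone names and the largest changes, an order chosen after values were seen. Gene bodies were at least 15 kb long and were kept where the distance between flanking placed starts differed from RefSeq by at most 1 kb (6039 of 6136). List genes named are the 4 of each list with most sites and both ends of the broadly expressed list. Members and lists were chosen with earlier results of these data known. The tile intervals were tested on simulated data. The site calls were only checked on a few made-up counts, so their error rate was not assessed. Work was done with matplotlib 3.10.9, scipy 1.17.1, pandas 2.3.3, numpy 2.4.6 and Python 3.11.15. Chromosome 18 has no entry in the promoter table used.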

Additional observations from a re-analysis of the deposited data

Results flagged for a closer look

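Signal also appeared in sites that the comparison does not use. On the X chromosome, 9150 sites with the same coverage limits had a level of 2.26% in DNMT3B1 cells and 5.12% in the knockout, a rise of 2.87 points. At 2795 autosomal sites above both coverage maxima the levels were 2.05% and 5.32%, a rise of 3.27 points.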

How the results depend on the processing

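The rise, the classes, gained and lost sites, the density and flank contrasts and the tile counts were recomputed under other settings. Gene bodies, promoters and tiles restricted to 10 to 19 CpGs were settings chosen after seeing the data. No paired analysis was possible because each line is 1 library and the 2 runs of a line have no values of their own, so no run could be left out either. The autosomal rise was 3.16 points with each site weighted equally, 2.74 with the level of the densest CpG class subtracted, 3.14 with a minimum of 5 reads in DNMT3B1, 2.80 with 20 in both lines, 3.09 without a coverage maximum, 3.32 at 12 to 16 reads in both lines and 3.04 without chromosomes 6, 8 and 11. The share of sites in a higher class was 29.7% at 5 reads, 32.3% at 20, 26.4% at 12 to 16 and 28.3% without the 3 chromosomes.

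Gained and lost sites were 66117 and 29173 at 5 reads (2.27 gained for each lost), 867 and 370 at 20, 7194 and 1701 at 12 to 16, 1763 and 629 from at most 20% to at least 80%, and 188034 and 55002 for a change of at least 30 points. Gained and lost stretches were 209 and 101 at 5 reads, 1 and 0 at 20, and 2 and 1 at 12 to 16, settings that change how many sites are compared. Larger and smaller tile rises were 16 and 9 at 20 reads, 56 and 13 by log2 ratio, 362 and 146 in tiles of 500 kb and 1237 and 1168 in tiles of 100 kb. They were 21 and 48 at 12 to 16 reads and 52 and 54 at 10 to 19 CpGs, against 130 and 53 as reported, so the excess of larger rises did not hold there. The number of tiles compared differs between settings, and so does the pooled rise that some of them are set against. As reported, that rise was 3.05 points, below the median tile rise of 3.22, which by itself favours calls of a larger rise.

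The rise at 10 to 19 CpGs exceeded the autosomal rise by 0.55 points. That excess was 0.49 at 5 reads, 0.63 at 20 reads and at 2 to 3 CpGs within 100 bp, 0.31 without a coverage maximum and 0.47 at 12 to 16 reads, and turned to -0.016 as log2 ratio. At 60 and more CpGs the rise differed by -2.74 points. This was -2.83 at 5 reads, -2.49 at 20, -2.77 without a maximum, -2.98 at 12 to 16, -2.72 without the 3 chromosomes and -2.56 at 12 or more CpGs within 100 bp, and turned to 0.54 as log2 ratio. At 10 to 19 CpGs, flanks at 6% and over had a rise 0.20 points above those under 1%. This contrast was 0.073 at 12 to 16 reads and 0.70 by DNMT3A2, and turned to -0.084 at 20 reads, -0.34 as log2 ratio and -12.6 by the site itself, so its direction at this density is not established.

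The median rise of neuronal genes exceeded that of broadly expressed genes by 2.17 points. The excess was 2.47 at 5 reads, 2.46 at 10 to 19 CpGs, 0.75 as log2 ratio, 3.70 at 20 reads (3 and 2 genes) and 3.12 there with bodies of at least 20 sites, and turned to -1.0 at 12 to 16 reads (17 genes and 1), where bodies of at least 20 sites gave 1.64. Named tiles, named promoters and the 5 gene bodies at each end of the order were also recomputed, but not the single genes named from the lists. At 20 reads and at 12 to 16 reads no named tile could be measured, nor could most of the promoters. Of the gene bodies only Fasn could be, at 20 reads. Where values were available, 3 changed sign: Rab3gap2 to 0.98 points at 5 reads, the tile at 5 Mb on chromosome 7 to -1.32 without a maximum, and the promoter of Hcrtr1 to -3.23 at 12 to 16 reads. The changes of Plagl1 and Trmt44 were 0 at 12 to 16 reads, and at 20 reads that of Trim60 was 7.41 and that of Bcl6 -10.9 points, all on 2 to 5 CpGs. The cause was not tested in any of these.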
